A study of Mus musculus and Homo sapiens with 41 samples.

Results

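The genes described here carry out or time the copying of DNA in S phase. They are a list of 42 mouse genes matched by symbol, and all 42 were found once in both expression tables, among 53756 gene rows for GMPs and 13238 for 416b cells. GMPs are granulocyte-monocyte progenitors of the bone marrow. In the study they were sorted as Lineage negative, c-Kit+, Sca-1-, Cd34+ and FcγR+ cells from lethally irradiated C57BL/6 Cd45-1 hosts that had received C57BL/6 Cd45-2 marrow, either WT or homozygous for the lu mutation of Zbtb16 (Zbtb16lu/lu), the gene of the transcription factor PLZF. 416b is a suspension line of Cd34-positive mouse myeloid progenitors. It was transduced with lentivirus carrying GFP with PLZF-Flag or with GFP and the Flag tag alone (Empty vector), and GFP-positive cells were sorted. All groups share transplantation or transduction, and no GMPs of untransplanted mice are compared here. The RNA-seq tables hold 2 libraries of each GMP genotype and 1 library of each 416b condition, so 416b values have no replicate.

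Replication begins in G1, when the origin recognition complex, Cdc6 and Cdt1 load rings of the Mcm2 to Mcm7 proteins onto DNA. In S phase Cdc45 and the GINS complex turn these rings into the moving helicase, polymerases copy both strands, and the sliding clamp PCNA tethers the enzymes that extend and join the new DNA. Cyclin E and E2F1 control entry into S phase, and many replication genes are classical E2F targets, so their RNA is abundant in fast dividing cells such as myeloid progenitors.

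Sequences around the transcription start were examined because E2F-type elements are the best known feature that replication genes share. RefSeq windows on GRCm38.p6 were given for 35 of the 42 genes, each running from 250 bases before to 50 bases after a start site. The letters TTTNNCGC, searched on both strands, occurred in the windows of 13 of these 35 genes and of 5.93% of all 27025 genes with a window. The 13 genes were Orc1, Cdc6, Cdt1, Mcm3, Mcm5, Mcm6, Mcm7, Pola1, Pold1, Rfc3, Lig1, Tyms and Uhrf1. Printed here are 3 genes with more than 1 match and, of the genes with 1, the licensing genes Orc1 and Cdc6. Each is given as 210 bases of its own strand, from 180 bases before to 30 bases after the start, with the matches in capitals. The Mcm6 window (chr1:128359676-128359885, minus strand) has 3 matches, of which the first pair overlap on opposite strands. Those of Mcm7 (chr5:138171854-138172063, minus strand) and Rfc3 (chr5:151651179-151651388, minus strand) have 2 each. Orc1 (chr4:108579274-108579483, plus strand) and Cdc6 (chr11:98907971-98908180, plus strand) have 1 each.
Mcm6: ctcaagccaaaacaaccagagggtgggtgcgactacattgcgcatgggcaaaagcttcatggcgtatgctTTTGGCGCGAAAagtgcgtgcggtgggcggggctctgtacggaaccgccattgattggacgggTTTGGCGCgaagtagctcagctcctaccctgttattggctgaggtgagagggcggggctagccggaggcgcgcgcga
Mcm7: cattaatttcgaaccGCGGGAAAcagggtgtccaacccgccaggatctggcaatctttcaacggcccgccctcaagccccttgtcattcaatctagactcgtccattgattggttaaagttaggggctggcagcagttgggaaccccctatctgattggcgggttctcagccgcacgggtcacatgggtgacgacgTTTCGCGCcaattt
Rfc3: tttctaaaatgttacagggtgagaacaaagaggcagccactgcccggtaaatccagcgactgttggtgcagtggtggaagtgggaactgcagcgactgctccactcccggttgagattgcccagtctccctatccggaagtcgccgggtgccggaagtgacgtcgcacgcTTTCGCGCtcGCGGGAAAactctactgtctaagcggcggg
Orc1: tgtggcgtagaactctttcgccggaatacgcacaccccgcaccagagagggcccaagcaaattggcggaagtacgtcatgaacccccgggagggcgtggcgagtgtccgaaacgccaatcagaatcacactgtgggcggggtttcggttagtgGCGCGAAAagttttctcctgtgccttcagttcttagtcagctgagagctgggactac
Cdc6: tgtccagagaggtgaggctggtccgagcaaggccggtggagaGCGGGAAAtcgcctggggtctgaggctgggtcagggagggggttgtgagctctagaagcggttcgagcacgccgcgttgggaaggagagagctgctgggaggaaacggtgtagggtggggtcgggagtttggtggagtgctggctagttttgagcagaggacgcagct

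**Figure D1:**
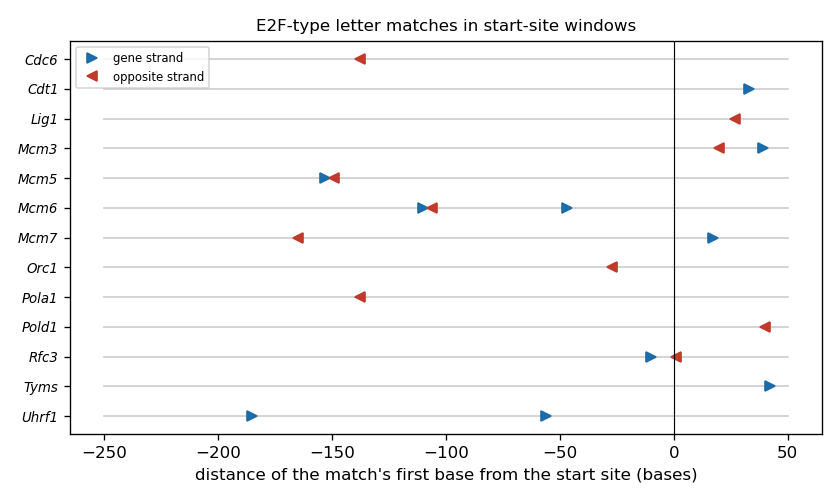
Matches to TTTNNCGC in the start-site windows of the 13 replication genes that have one. The horizontal axis is the distance in bases of a match's first base from the start site, grey lines are the windows searched, right-pointing triangles are matches on the gene's strand and left-pointing ones matches on the opposite strand. The 20 matches lie between -185 and 42 bases, and 12 of them are within 100 bases of the start.

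The 20 matches lay between -185 and 42 bases from the start site, and 12 lay within 100 bases of it. Among the forms that TTTNNCGC contains, TTTCCCGC was found for 5 of the 35 genes (1.24% of all genes) and TTTGGCGC for 5 (0.585%). The CCAAT box, CCAAT on either strand, was found for 20 of 35 genes (41.1% of all genes), and the GC box, GGGCGG on either strand, for 27 (38.2%). TTTGAA, letters of the CHR element known from genes of mitosis, was found for 3 of 35 (20.2% of all genes). For genes with an E2F-type match the median log2 fold change between GMP genotypes was 0.05, against -0.01 for the 22 genes whose window had none, and the median log2 ratio in 416b cells was 0.01 against 0.00 (0.000906).

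Values in both tables are counts divided by a size factor by the authors, called normalized counts below. Whole reads could be recovered from all values of the GMP table. For 416b cells 84.3% of the Empty vector and 85.5% of the PLZF-Flag values were whole reads, as were both values of 32 of the 42 genes, and the reads of the others are given rounded. The GMP libraries held between 37562999 and 40170636 reads. In 416b cells 54530162 reads fell on listed genes in Empty vector and 19995393 in PLZF-Flag. The targeted gene followed the labels. Zbtb16 had 705 and 828 normalized counts in WT GMPs against 369 and 269 in Zbtb16lu/lu GMPs. In 416b cells it had 632 reads in Empty vector against 1538 in the less deeply sequenced PLZF-Flag library. Between normalized counts of these libraries the log2 ratio was 2.73 (2.60 to 2.87, counting error only). All 10 GMP markers examined, among them Cd34, Kit, Mpo and Elane, were present in each GMP library, whereas Mpo was near 0 in 416b cells (12.1 and 3.3 normalized counts). Summed over marker lists, monocyte genes gave 79017 and 94590 normalized counts in WT against 106716 and 113615 in Zbtb16lu/lu GMPs, mature neutrophil genes 3455 and 3279 against 4695 and 7452, erythroid and megakaryocyte genes 2363 and 5481 against 2060 and 3666, and mast cell and basophil genes 9165 and 9028 against 6327 and 8178. In WT most of the mature neutrophil sum came from Itgam and Lcn2, whose values overlapped between genotypes. The other 8 of these 10 genes had values in Zbtb16lu/lu that all exceeded those in WT, as did 21.7% of all genes, and the median log2 fold change of the list was 2.14 over 11 rows, since Itgam is listed in 2, or 0.68 between library 1 of each genotype, whose columns carry the same date, and 2.37 between the others. Ltf, which encodes lactoferrin, had 56.7 and 11.6 normalized counts in WT against 305 and 846 in Zbtb16lu/lu. Their part in the results below was not tested. In such bulk samples fewer cells of a type and less RNA per cell cannot be told apart.

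Replication genes were among the more abundant genes of both cell types. Together they made up 0.745% and 0.704% of the normalized counts of WT GMPs, 0.753% and 0.756% of those of Zbtb16lu/lu GMPs, 0.902% in Empty vector and 0.897% in PLZF-Flag 416b cells. Levels of different genes are compared as normalized counts per kilobase of annotated exon. Percentiles by this measure were taken among the 11171 genes that passed the filters on low values in both tables and had a known exon length. The median gene of the list stood at the 84.5 and 84.0 percentile in the WT libraries and at 84.7 and 85.8 in the Zbtb16lu/lu libraries. It stood at 78.6 in Empty vector and at 80.6 in PLZF-Flag. In WT GMPs the level per kilobase spanned 25.6-fold, from 259 for Ung, the uracil-DNA glycosylase that removes uracil from new DNA, to 6613 for Mcm6. Next to Mcm6 came Mcm5 (5073), Mcm3 (4844), the flap endonuclease Fen1 (3579), which trims Okazaki fragments, and Dut (3036), the dUTPase that keeps uracil out of DNA. The lowest after Ung were Orc1 (286), the largest subunit of the origin recognition complex, and Ccne1 (319), which encodes cyclin E1. Among the subunits of the helicase ring, Mcm6, Mcm5 and Mcm3 were the highest genes of the list, whereas Mcm4 (2990), Mcm7 (2600) and Mcm2 (2021) stood below Fen1 and Dut. Orc1 and Ccne1 stood at the 49.0 and 52.1 percentile of all these genes in WT.

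**Figure D2:**
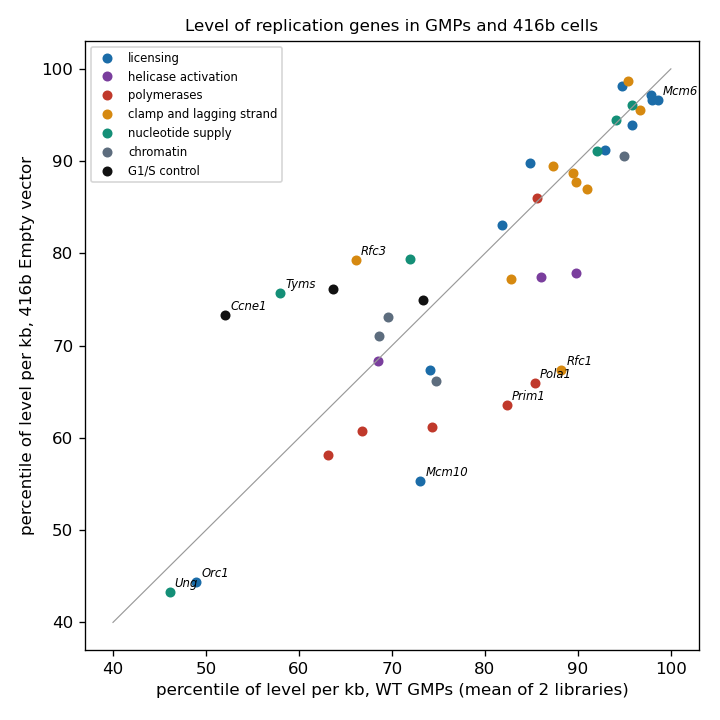
Percentile of the level per kilobase of each replication gene in WT GMPs (horizontal axis, mean of 2 libraries) and in Empty vector 416b cells (vertical axis, 1 library). Percentiles are among the 11171 genes that passed the filters on low values in both tables and had a known exon length. Each point is 1 gene coloured by role, the grey line marks equal percentiles, and 16 of 42 genes lie above it, with Ccne1, Tyms and Rfc3 far above and Rfc1, Pola1, Prim1 and Mcm10 far below.

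The order of the genes differed between the cell types. Across the cell types only quantities formed within a library are set side by side, such as percentiles, shares and ratios of genes, since the tables were normalized separately and the kits differ, with ribosomal RNA depletion for GMPs and SMART-Seq amplification for 416b cells. Cell type and kit cannot be told apart. Of the 42 genes, 16 had a higher percentile in Empty vector 416b cells than in WT GMPs. Ccne1 stood at the 52.1 percentile in WT GMPs and at 73.4 in 416b cells, Tyms, the thymidylate synthase, at 58.0 and 75.7, and Rfc3, a subunit of the clamp loader, at 66.1 and 79.3. The opposite was seen for Rfc1, the large subunit of the clamp loader (88.2 and 67.4), and for Prim1, the catalytic subunit of primase (82.4 and 63.6). Pola1, the catalytic subunit of polymerase alpha (85.4 and 66.0), and Mcm10 (73.0 and 55.3) also stood higher in GMPs.

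**Figure D3:**
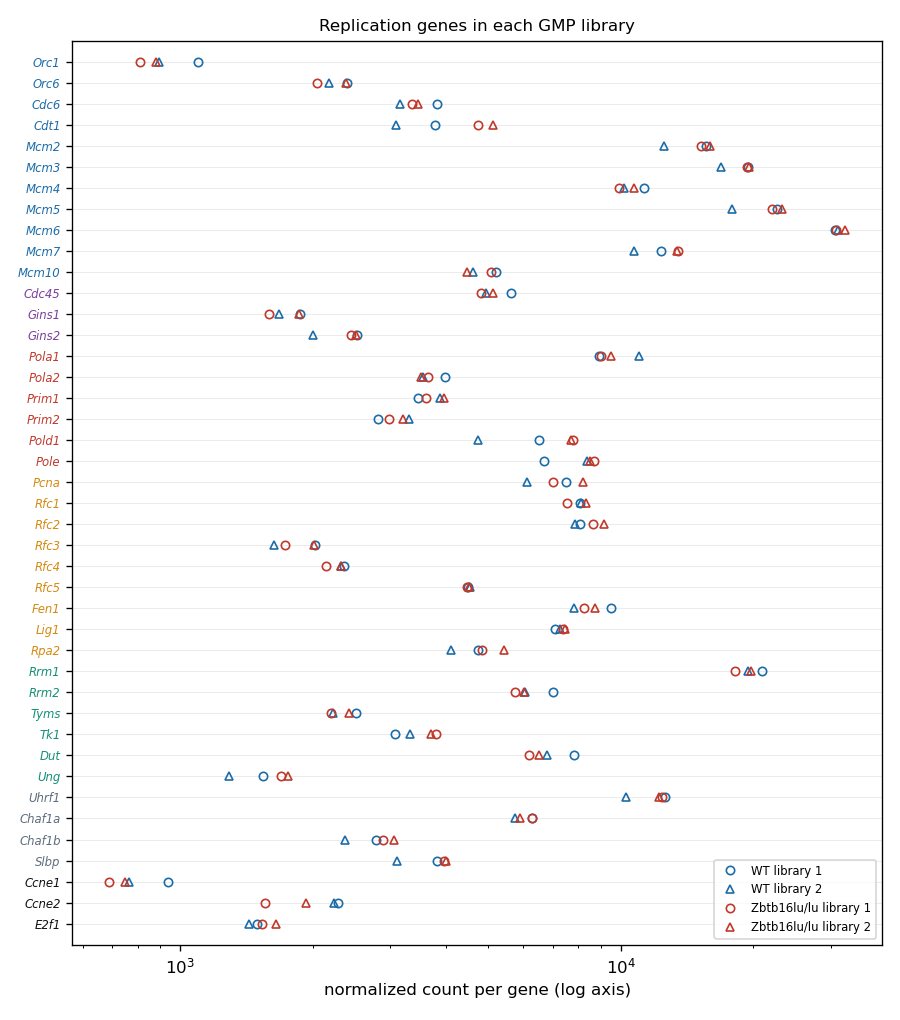
Normalized counts of the 42 replication genes in each GMP library, on a log axis. Blue symbols are the 2 WT libraries and red symbols the 2 Zbtb16lu/lu libraries, circles mark the library of the date that the genotypes share (library 1) and triangles the other (library 2), and gene names are coloured by role. The symbols of both genotypes overlap for most genes. Cdt1 and Pold1 are among the 12 genes with both red symbols to the right of both blue ones, as 21.7% of all genes are.

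The first question was whether replication genes differ between Zbtb16lu/lu and WT GMPs. Their values fell to both sides of 0: 23 of the 42 genes had a higher and 19 a lower mean in Zbtb16lu/lu, with a median log2 fold change of 0.03 against -0.01 for all 20531 genes tested. The median was -0.04 for the 8242 genes whose mean normalized count lay within the range of the list. The split moved to 29 higher and 13 lower with quantile normalization and to 28 and 14 with a correction for GC content and gene length. All 42 passed the filter on low values, since the lowest normalized count of any of them was 689. With limma and a Benjamini-Hochberg adjusted p under 0.08, the study's false discovery rate, 0 of 42 genes passed, as did 0% of all genes. Zbtb16, the mutated gene, did not pass either, with a log2 fold change of -1.28 and a limma adjusted p = 0.299. That was the smallest value over all genes, and the DESeq2 adjusted p of Zbtb16 was 4.39e-05. A gene that did not pass limma can therefore not be called unchanged. The smallest adjusted p of the list was 0.370 (limma), for Cdt1. The DESeq2 Wald test on recovered reads called 1 of 42, Cdt1 (adjusted p = 0.0420), and 1.7% of the 12968 genes with an adjusted p, while the edgeR quasi-likelihood test called 0. At an unadjusted p under 0.05, 2 genes were higher, Cdt1 and Pold1 (5.5% of all genes), and 1 was lower, Ccne2 (4.37% of all genes). Both Zbtb16lu/lu libraries lay above both WT libraries in 12 of the 42 genes (21.7% of all genes), and below them in 5 (22.1%).

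These counts rest on the WT libraries. Without library 1 of WT, 12 of the 42 genes and 4662 of all genes passed the limma threshold, and without library 2 of WT 6 did, with 2749 of all genes. Only Cdt1 and Ccne2 were called in both cases, and such a fit draws its spread from the single genotype that keeps 2 libraries. The WT libraries themselves differed over the list: 33 of 42 genes were lower in library 2 than in library 1, with a median difference of -0.19 on the log2 scale, against 51.0% of all genes and a median of -0.01. Between the Zbtb16lu/lu libraries, 34 of 42 were higher in library 2 (median 0.08), against 54.2% of all genes. Within the date that a WT and a Zbtb16lu/lu library share, 25 of 42 genes were lower in Zbtb16lu/lu and the median was -0.03, whereas between the other libraries 32 were higher and the median was 0.12. The sign of the group's median thus changed with the libraries compared.

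The 95% limma intervals give the size of change that these libraries can resolve. For 36 of 42 genes the interval stayed within 1.5-fold in either direction. It reached beyond 1.5-fold for Orc1, Cdt1, Pold1, Ung, Ccne1 and Ccne2. The half-widths of these 6 ran from 0.30 to 0.37 on the log2 scale, and those of all 42 from 0.24 to 0.37.

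**Figure D4:**
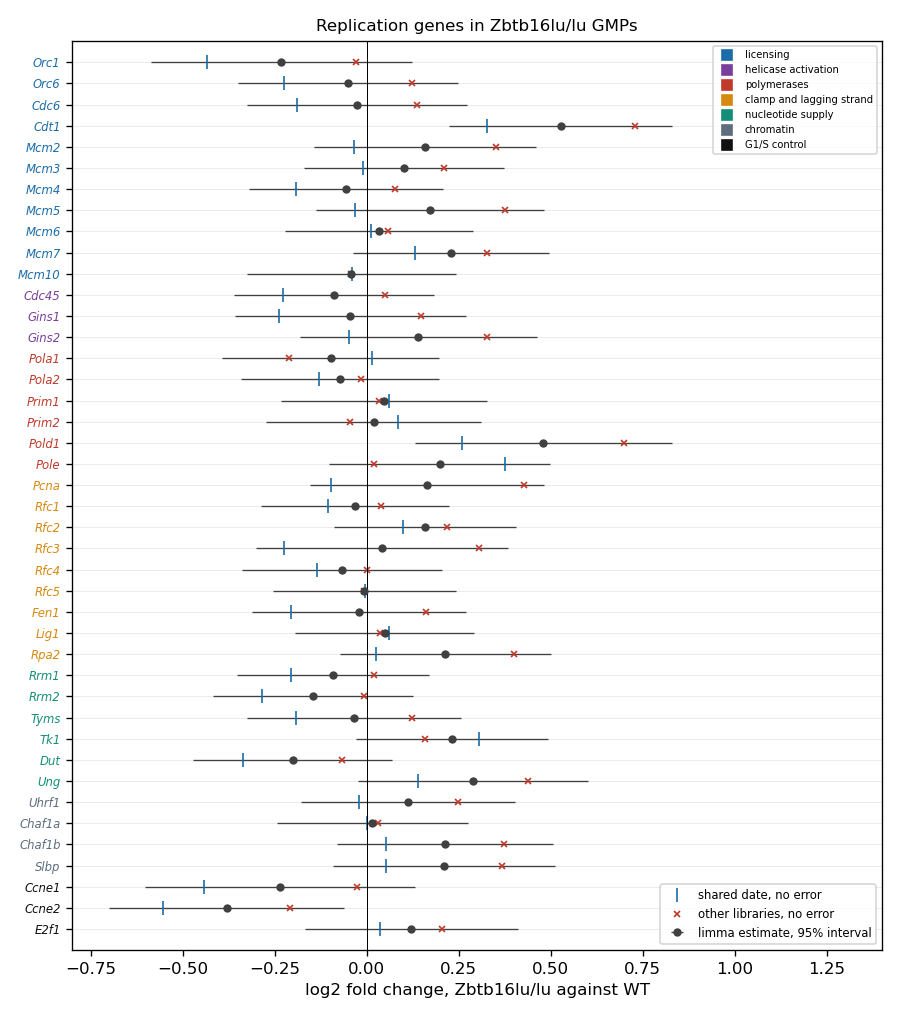
Log2 fold changes between WT and Zbtb16lu/lu GMPs for the 42 replication genes, positive where the mutant is higher. Black points with bars are the limma estimates with 95% intervals from 2 libraries of each genotype, blue ticks the difference within the shared date and red crosses that between the other libraries, and gene names are coloured by role. Only the intervals of Cdt1, Pold1 and Ccne2 leave out 0.

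Of the licensing genes, 6 had a higher and 5 a lower mean in Zbtb16lu/lu GMPs, with a median log2 fold change of 0.03, or -0.04 within the shared date and 0.14 between the other libraries. Cdt1, the loading factor that is limited to G1, differed most. Its normalized counts were 3783 and 3093 in WT (libraries 1 and 2) and 4743 and 5123 in Zbtb16lu/lu, so both mutant libraries were above both WT libraries. The log2 fold change was 0.53 (standard error, SE, 0.13, limma adjusted p = 0.370). Within the shared date it was 0.33 and between the other libraries 0.73, and corrected for gene length and GC content it was 0.34. Cdt1 lies on chromosome 8 of mm10 (122568015 to 122573554), and its longest transcript holds 57.8% GC. Cdc6, which loads the rings together with Cdt1, had 3831 and 3145 in WT against 3358 and 3457 in Zbtb16lu/lu, between the WT libraries. Per kilobase, Cdt1 therefore stood at 1.64 times Cdc6 in both WT libraries and at 2.35 and 2.47 times in the Zbtb16lu/lu libraries, and at 3.47 and 3.73 times in Empty vector and PLZF-Flag 416b cells. Orc1 had 1097 and 896 normalized counts in WT against 811 and 878 in Zbtb16lu/lu, a log2 fold change of -0.23 (SE 0.16, limma adjusted p = 0.624), with both mutant libraries lower. Its difference was -0.43 within the shared date and -0.03 between the other libraries.

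The Mcm2 to Mcm7 genes encode the ring of the replicative helicase, in which each protein occurs once. Mcm6 was the most abundant of them, with 30641 and 31069 normalized counts in WT against 30861 and 32333 in Zbtb16lu/lu. Mcm5 had 22594 and 17922 in WT against 22100 and 23236 in Zbtb16lu/lu, and Mcm3 had 19479 and 16868 against 19358 and 19522. In both, library 2 of WT was the low one and the other libraries lay close together. The same held for Mcm2, with 15614 and 12506 in WT against 15237 and 15967 in Zbtb16lu/lu. Mcm4 gave 11297 and 10166 in WT against 9895 and 10730 in Zbtb16lu/lu, again overlapping. Mcm7 was the subunit whose genotypes did not overlap, at 12310 and 10709 in WT against 13482 and 13441 in Zbtb16lu/lu, and its log2 fold change was 0.23 (SE 0.12, limma adjusted p = 0.548), with 0.13 within the shared date and 0.33 between the other libraries. The log2 fold changes of the others ran from -0.06 for Mcm4 to 0.17 for Mcm5. Within the shared date these 2 genes were at -0.19 and -0.03, and between the other libraries at 0.08 and 0.37. Without library 2 of WT, Mcm5 was at 0.004.

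The make-up of the ring's transcripts can be given as shares, without a test. Mcm6 accounted for 25.7% and 29.3% of the summed Mcm2 to Mcm7 level per kilobase in WT GMPs and for 26.1% and 26.4% in Zbtb16lu/lu GMPs, but for 17.3% in Empty vector and 18.2% in PLZF-Flag 416b cells. Mcm7 accounted for 10.9% and 10.7% in WT, 12.04% and 11.6% in Zbtb16lu/lu, and 26.7% and 26.4% in the 416b libraries. Mcm2 held the smallest share in each library, between 7.92% and 8.77%. Mcm7 hosts microRNA genes in an intron, and the share of reads from that region was not separated.

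Of the genes of helicase activation, Gins2 had a higher mean and Cdc45 and Gins1 a lower one, with a median log2 fold change of -0.04 between GMP genotypes. That median was -0.23 within the shared date, 0.15 between the other libraries and 0.02 with the GC and length correction. Gins1, a subunit of the GINS complex, had 1872 and 1679 normalized counts in WT against 1588 and 1862 in Zbtb16lu/lu, so the genotypes overlapped. Its log2 fold change of -0.04 turned to 0.02 with the same correction, to 0.03 without library 1 of WT and to 0.07 without library 1 of Zbtb16lu/lu.

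Among the polymerase genes 4 had a higher and 2 a lower mean, with a median of 0.03, or 0.14 with the GC and length correction. That median was 0.07 within the shared date and 0.003 between the other libraries. Pold1, the catalytic subunit of polymerase delta, which copies the lagging strand, had 6517 and 4752 normalized counts in WT against 7800 and 7717 in Zbtb16lu/lu. Both mutant libraries were higher and library 2 of WT was far below the rest. The log2 fold change was 0.48 (SE 0.15, limma adjusted p = 0.428 and DESeq2 adjusted p = 0.157). It was 0.26 within the shared date and 0.70 between the other libraries. Pold1 lies on chr7:44532746-44548849 of mm10 and has the highest transcript GC content of the list, 61.0%. With the GC and length correction its log2 fold change was 0.17. Across the 42 genes, Spearman's rho between transcript GC content and the log2 difference of library 2 from library 1 was -0.32 in WT and -0.50 in Zbtb16lu/lu. Over the 20103 genes with a known GC content it was -0.34 and -0.11. For the difference of Zbtb16lu/lu from WT within the shared date, rho was 0.36 across the 42 genes and 0.17 over the 20103 genes. These are descriptions over genes of the same libraries.

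Pole, the catalytic subunit of polymerase epsilon on the leading strand, had 6691 and 8370 in WT against 8681 and 8493 in Zbtb16lu/lu, a log2 fold change of 0.20 (SE 0.13, limma adjusted p = 0.621). Here library 1 of WT was the low one, and the log2 fold change was 0.04 without it, 0.36 without library 2 of WT, 0.38 within the shared date and 0.02 between the other libraries. The ratio of Pold1 to Pole per kilobase was 2.24 in library 1 and 1.30 in library 2 of WT, against 2.06 and 2.09 in Zbtb16lu/lu, so a single WT library stood apart. Pola1 had 8915 and 10981 in WT against 9009 and 9484 in Zbtb16lu/lu. Prim1 had 3456 and 3886 in WT against 3604 and 3977 in Zbtb16lu/lu. For both of these genes the genotypes overlapped.

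Of the genes of the clamp and the lagging strand, 5 had a higher and 4 a lower mean, with a median log2 fold change of 0.04, or -0.10 within the shared date and 0.16 between the other libraries. Rpa2 encodes a subunit of the protein that coats single-stranded DNA. It had 4747 and 4118 normalized counts in WT against 4833 and 5439 in Zbtb16lu/lu, without overlap, and a log2 fold change of 0.21 (SE 0.13, limma adjusted p = 0.583), which was 0.03 within the shared date and 0.40 between the other libraries. Pcna itself had 7501 and 6111 in WT against 7010 and 8211 in Zbtb16lu/lu, with overlap. Fen1 had 9509 and 7826 in WT against 8249 and 8757 in Zbtb16lu/lu, inside the WT range. The clamp loader genes Rfc1 to Rfc5 had log2 fold changes from -0.07 (Rfc4, which turned to 0.06 with the GC and length correction) to 0.16 (Rfc2), and Rfc5 was nearly equal in all libraries, between 4484 and 4544.

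Of the nucleotide supply genes 2 had a higher and 4 a lower mean, and none passed the limma test. Their median log2 fold change was -0.06, or -0.20 within the shared date, 0.07 between the other libraries and 0.02 with the GC and length correction. Ung had 1537 and 1292 normalized counts in WT against 1693 and 1751 in Zbtb16lu/lu, a log2 fold change of 0.29 (SE 0.14, limma adjusted p = 0.527). Tk1, the thymidine kinase of the salvage pathway, had 3080 and 3317 in WT against 3806 and 3700 in Zbtb16lu/lu, a log2 fold change of 0.23 (SE 0.11, limma adjusted p = 0.536). In both genes the mutant libraries were the higher ones. The difference of Ung was 0.14 within the shared date and 0.44 between the other libraries, and that of Tk1 was 0.31 and 0.16. Dut went the other way, with 7818 and 6814 in WT against 6189 and 6508 in Zbtb16lu/lu and a log2 fold change of -0.20 (SE 0.12, limma adjusted p = 0.583), or -0.34 within the shared date and -0.07 between the other libraries. The ribonucleotide reductase genes, which make deoxynucleotides, had log2 fold changes of -0.09 (Rrm1, which turned to 0.03 with the GC and length correction) and -0.15 (Rrm2). Within the shared date Rrm1 was at -0.20 and Rrm2 at -0.28, and between the other libraries they were at 0.02 and -0.008. Rrm1 stood at 0.750 and 0.809 times Rrm2 per kilobase in WT, at 0.793 and 0.825 times in Zbtb16lu/lu and at 0.651 and 0.653 times in the 416b libraries.

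All 4 chromatin genes had a higher mean in Zbtb16lu/lu, though Chaf1a turned to -0.04 with the GC and length correction and, without library 2 of WT, Chaf1a was at -0.05 and Uhrf1 at -0.03. Their median log2 fold change was 0.16, or 0.03 within the shared date and 0.31 between the other libraries, and none passed the limma test. Chaf1b, a subunit of the chromatin assembly factor that deposits histones behind the fork, had 2778 and 2363 normalized counts in WT against 2880 and 3061 in Zbtb16lu/lu, a log2 fold change of 0.21 (SE 0.13, limma adjusted p = 0.589). Its partner Chaf1a had 6299 and 5766 in WT against 6301 and 5891 in Zbtb16lu/lu, with a log2 fold change of 0.02. Slbp, which binds the stem-loop of histone mRNA, had 3827 and 3106 in WT against 3967 and 4008 in Zbtb16lu/lu, a log2 fold change of 0.21 (SE 0.13, limma adjusted p = 0.603). For both Chaf1b and Slbp the difference was 0.05 within the shared date and 0.37 between the other libraries. Without library 2 of WT it was 0.10 for Chaf1b and 0.06 for Slbp. Uhrf1, which recruits the maintenance DNA methyltransferase, had 12596 and 10299 in WT against 12414 and 12222 in Zbtb16lu/lu, with overlap.

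Of the G1/S control genes, E2f1 had a higher and both cyclin genes a lower mean in Zbtb16lu/lu. Ccne2, which encodes cyclin E2, was the lowest gene of the list relative to WT, with 2283 and 2229 normalized counts in WT against 1557 and 1929 in Zbtb16lu/lu. The WT libraries lay close together and both mutant libraries were below them. The log2 fold change was -0.38 (SE 0.14, limma adjusted p = 0.468). It was -0.55 within the shared date, -0.21 between the other libraries and -0.17 with the GC and length correction. Ccne2 (chr4:11191351-11204779 of mm10) has a transcript GC content of 36.3%, the lowest of the list. Ccne1 had 937 and 763 in WT against 689 and 749 in Zbtb16lu/lu, a log2 fold change of -0.23 (SE 0.16, limma adjusted p = 0.627), and its lower WT library was close to the mutant ones. E2f1, the transcription factor, had 1493 and 1428 in WT against 1532 and 1647 in Zbtb16lu/lu, a log2 fold change of 0.12 that turned to -0.09 with the GC and length correction. For Ccne1 the difference was -0.44 within the shared date and -0.03 between the other libraries.

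Other genes of replication not on the list were examined the same way. Of 62 such genes, chosen with earlier results of these data known, 25 had a higher and 37 a lower mean in Zbtb16lu/lu, with a median log2 fold change of -0.05. That median was -0.10 within the shared date, -0.01 between the other libraries and 0.02 with the GC and length correction. Limma called 0 of them, as it did 0% of all genes, and DESeq2 called 1, Top1, against 1.7% of all genes. At an unadjusted p under 0.05 limma had 3 higher (5.5% of all genes) and 6 lower (4.37% of all genes). Timeless, a fork protection factor, had 4313 and 4420 normalized counts in WT against 5796 and 5801 in Zbtb16lu/lu, a log2 fold change of 0.41 (SE 0.11, limma adjusted p = 0.386). The log2 fold changes of Rnaseh2c and Rnaseh2a, subunits of the nuclease that removes ribonucleotides, were 0.39 and 0.30. Top1, the topoisomerase that relieves twisting ahead of the fork, had 7593 and 7443 in WT against 5146 and 5444 in Zbtb16lu/lu, a log2 fold change of -0.51 (limma adjusted p = 0.309, DESeq2 adjusted p = 0.0141). Dbf4, the activating subunit of the kinase that fires origins, had a log2 fold change of -0.32 and Mcm8, a helicase of DNA repair, of -0.36. In 416b cells, with 1 library of each condition and intervals for counting error only, the log2 ratio of Top1 was 0.17 (0.12 to 0.23) and that of Timeless 0.08 (0.01 to 0.15).

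Genes of the neighbouring cell cycle steps gave other counts in the same libraries. Of 31 genes of mitosis, 1 had a higher and 30 a lower mean in Zbtb16lu/lu GMPs, with a median log2 fold change of -0.23. Over all genes tested, 49.1% had a higher mean. Of 67 replication-dependent histone genes, whose RNA is made in S phase and which have near-identical copies, 67 had a higher mean, with a median of 0.88. For these lists limma likewise called 0 genes at the threshold, and DESeq2 called 37 histone genes and 0 mitosis genes, against 1.7% of all genes. At an unadjusted p under 0.05 limma had 9 mitosis genes lower (4.37% of all genes) and 58 histone genes higher (5.5% of all genes). The medians within the shared date were -0.16 for mitosis and 0.42 for histone genes, and between the other libraries -0.30 and 1.37. In 416b cells 19 mitosis genes were higher and 12 lower in PLZF-Flag, with a median log2 ratio of 0.02. Of 56 histone genes with a mean of at least 10 there, 16 were higher and 40 lower, with a median of -0.27. The difference between the lists was not tested.

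The second question was whether replication genes differ when PLZF is overexpressed in 416b cells. The ratios were small: in PLZF-Flag cells 22 of 42 genes were above and 20 below their Empty vector level, with a median log2 ratio of 0.00 (0.00475) against 0.00 (-0.000141) for the 11836 genes with a mean of at least 10. The fold cutoff of 1.5 was reached by 0 of 42 genes, in either direction, and by 4.8% of all genes. At 1.2-fold, a cutoff added after the data were seen, 1 of 42 was beyond it, Gins1, and 15.3% of all genes. Among the 6817 genes whose mean normalized count lay within the range of the list, 0.161% were beyond 1.5-fold and 2.68% beyond 1.2-fold. Counts were large, from 516 to 49828 reads per gene and library, so Clopper-Pearson intervals at the 95% level were narrow. They cover counting error only and say nothing of variation between cultures. Intervals above 0 were found for 12 of 42 genes (16.1% of all genes) and intervals below 0 for 11 (16%). Over the 6817 genes of the same range the shares were 21.3% and 18.8%. All 42 intervals stayed within 1.5-fold.

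**Figure D5:**
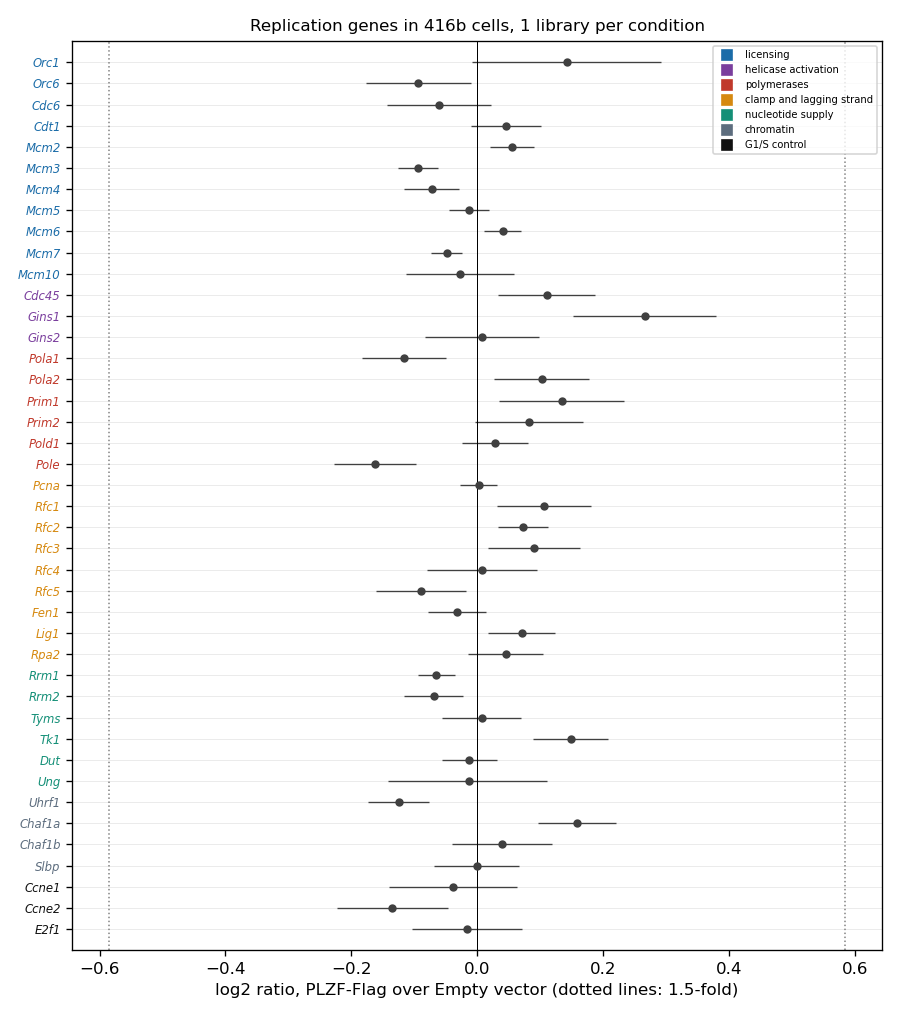
Log2 ratios, PLZF-Flag over Empty vector, of the normalized counts of the 42 replication genes in 416b cells, 1 library per condition. Bars are 95% Clopper-Pearson intervals of counting error, dotted lines mark 1.5-fold and gene names are coloured by role. Ratios run from -0.16 (Pole) to 0.27 (Gins1), and no interval reaches the dotted lines.

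The highest ratio was that of Gins1, covered by 2054 Empty vector and 905 PLZF-Flag reads, or 1243 and 1495 normalized counts, a log2 ratio of 0.27 (0.15 to 0.38). Of the other genes of helicase activation, Cdc45 had 0.11 (0.03 to 0.19), whereas the interval of Gins2 spanned 0, at 0.01 (-0.08 to 0.10). Chaf1a had 7333 and 2998 reads and a log2 ratio of 0.16 (0.10 to 0.22), while its partner Chaf1b had 0.04 (-0.04 to 0.12). Tk1 followed with 7759 and 3150 reads and 0.15 (0.09 to 0.21). Orc1 had the fewest reads of the list, 1276 and 516, with a log2 ratio of 0.14 (-0.01 to 0.29), so a difference was not detectable at this depth. Prim1 had 2871 and 1154 reads and a log2 ratio of 0.13 (0.03 to 0.23). Roles were mixed among these highest genes, which belong to helicase activation, chromatin assembly, nucleotide supply, licensing and priming.

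The lowest ratio was that of Pole, with 7599 and 2487 reads, or 4599 and 4110 normalized counts, and a log2 ratio of -0.16 (-0.23 to -0.10). Ccne2 had 4179 and 1394 reads and a log2 ratio of -0.13 (-0.22 to -0.05). Uhrf1 gave 13519 and 4542 reads, a log2 ratio of -0.12 (-0.17 to -0.08), and Pola1 7182 and 2427 reads, also -0.12 (-0.18 to -0.05). The polymerases were thus split, since Pola2, the partner of Pola1, had 0.10 (0.03 to 0.18) and Pold1 0.03 (-0.02 to 0.08). Mcm3 completed the lowest genes with 30752 and 10556 reads and -0.09 (-0.13 to -0.06). Its fellow ring genes were at 0.06 for Mcm2 (0.02 to 0.09), -0.07 for Mcm4 (-0.12 to -0.03), -0.01 for Mcm5 (-0.05 to 0.02), 0.04 for Mcm6 (0.01 to 0.07) and -0.05 for Mcm7 (-0.07 to -0.02). Cdt1, the gene with the largest difference between GMP genotypes, had 9412 and 3560 reads and 0.05 (-0.01 to 0.10) here.

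Side by side, the experiments share no libraries. Of the 42 genes, 15 were higher in Zbtb16lu/lu GMPs and in PLZF-Flag cells, 12 lower in both, 8 higher in Zbtb16lu/lu and lower in PLZF-Flag, and 7 the reverse, so 15 had opposite signs between loss and gain of PLZF. The same share over all genes was not computed. Most of the signs in GMPs were not resolved, since only the intervals of Cdt1, Pold1 and Ccne2 left out 0. Ccne2 was lower in both, at -0.38 in GMPs and -0.13 in 416b cells, and Tk1 higher in both, at 0.23 and 0.15. Pole was 0.20 in GMPs, a value that fell to 0.04 without library 1 of WT, and -0.16 in 416b cells. The limma test called none of these GMP differences.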

How the data were processed

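Total RNA was sequenced from GMPs (ribosomal RNA depleted, stranded kit) and 416b cells (SMART-Seq amplification). The authors aligned reads to mm10 with subread-align 1.5.0, summed them over genes with featureCounts and scaled each library by its DESeq2 size factor; the annotation release is not given in the sources used here. The deposited signal is therefore a normalized count. Columns with the authors' log2 values, fold changes and p-values were not used. In GMPs 100% of values were whole multiples of 1 read (tolerance 0.1), in 416b cells 84.3% (Empty vector) and 85.5% (PLZF-Flag), the rest holding fractions of a read, which were rounded.

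Log2(normalized count + 1) was compared between GMP genotypes with limma 3.58.1 (intensity trend, R 4.3.3) for the 20531 genes reaching 10 normalized counts in 2 or more libraries, with Benjamini-Hochberg adjustment over all of them. edgeR 4.0.16 and DESeq2 1.42.0 on recovered reads were alternatives. The fold change scale understates low genes. The table holds 2 GMP libraries per genotype where the methods describe 3 extractions, and p-values measure only the spread between these libraries. Columns carry dates, and library 1 of each genotype has the shared one. In 416b cells, with no replicate, log2 ratios used the same pseudocount and Clopper-Pearson 95% intervals (scipy 1.17.1).

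Exon lengths, GC content and gene positions came from GENCODE M21 and start-site windows from RefSeq, both GRCm38 (mm10). GC content is that of the longest transcript of each gene. Values in full are given for the 12 genes with the smallest limma p, the 5 highest and 5 lowest 416b ratios, Mcm2 to Mcm7, and the 5 highest and 3 lowest levels per kilobase. Of the other replication genes, the 3 higher and 3 lower with the smallest p are named. Gene names outside this rule (Cdc6, Cdc45, Gins2, Pola2, Pcna, E2f1, the Rfc and Rrm genes and percentile examples) were chosen after their values were seen. Members and lists were chosen with earlier results of these data known. The limma and edgeR tests were tried on simulated counts with the same number of libraries. These counts had the same fixed dispersion for all genes and no differences between dates. The DESeq2 test was not tried this way. The ChIP-seq and ATAC-seq data were not used here.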

Additional observations from a re-analysis of the deposited data

How the results depend on the processing

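No paired analysis was possible because the library columns hold dates in place of replicate numbers, and a block with a single shared date leaves no spread to test against. The number of replication genes past the limma threshold in GMPs stayed at 0 in every setting with all 4 libraries except the DESeq2 Wald test, which gave 1. With each library left out it ranged from 0 to 12, and the number at an unadjusted p under 0.05 from 2 to 14, where the lone library of a genotype is assumed to vary like the other genotype. That number was 3 in the reported comparison, 5 with quantile normalization and 1 without the intensity trend. The group's median log2 fold change was 0.12 between the libraries of unshared dates and from -0.016 to 0.069 with each library left out. Directions reversed in genes of small difference. With the GC and length correction Mcm4 became 0.024, Gins1 0.020, Pola1 0.050 and Chaf1a -0.041, and Orc6, Rfc1, Rfc4, Rrm1, Tyms, Lig1 and E2f1 also changed sign. With quantile normalization Fen1 became 0.030, and Cdc6, Mcm10, Rfc1, Rfc5 and Tyms also changed sign. With each library left out the ranges spanned 0 for Mcm2 (-0.0015 to 0.32), Mcm3 (-0.0029 to 0.20), Mcm4 (-0.13 to 0.019), Gins1 (-0.16 to 0.070), Pola1 (-0.25 to 0.052), Prim1 (-0.037 to 0.13), Fen1 (-0.16 to 0.12), Uhrf1 (-0.032 to 0.26) and Chaf1a (-0.048 to 0.079). In 416b cells, the median ratio was 0.018 over the 32 genes with whole reads in both libraries, and 1 gene was beyond 1.2-fold, against 0 beyond 1.5-fold. The number of intervals that left out 0 was 23 and at least 19 in the 416b settings. The cause of these changes was not tested. Precision was limited by 2 libraries of each genotype and 1 of each 416b condition, and by depth for Orc1, the gene with the fewest reads in 416b cells.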
